A study of Mus musculus with 12 samples.

Results

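The same mouse reference RNA was assayed at 2 inputs, 3 ng and 10 ng, and the signals of the 2 inputs were compared probe set by probe set. The arrays were chosen by their titles, which give the RNA, the input and a replicate number: 3 arrays held reference RNA at 3 ng and 3 held it at 10 ng, 6 of the 12 arrays of the series. Both groups held total RNA labelled as universal mouse reference RNA, a commercial mixture prepared from several cultured lines, so RNA source, species and platform were shared and input was the stated difference. The other 6 arrays held the same reference RNA at 0.3 ng, and kidney RNA from Ambion at 10 ng, 3 arrays each. The series title names amplification of nanogram amounts of RNA, and the code pRS stands in the title of every sample without an explanation. No source used here says whether arrays of 1 input came from separate aliquots or separate amplifications, so the p-values below describe nothing beyond how far these arrays differed from one another, a spread that may be technical.

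On arrays of this kind a gene is read by one or more probe sets, groups of short oligonucleotides that are designed mostly near the 3′ end of a transcript. RNA in nanogram amounts has to be copied before it can be labelled, commonly by priming at the poly(A) tail and transcribing the copy, and rare transcripts, long transcripts and transcripts without a tail are the classes in which such copying is known to vary. Probe set names carry a suffix: _s_at and _x_at mark probe sets whose probes can also match other transcripts, so their signal may be shared between genes.

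Each array carried 45101 probe sets, and every array had the same 2% trimmed mean of 500, so a signal is a value on that scale. Signals below 33.65, the level set by 27 Bacillus control probe sets, were taken as background and made up 35.4% to 36.3% of an array at 10 ng and 33.2% to 35.6% at 3 ng. The median signal of an array was 67.9 to 71.2 at 10 ng and 70.1 to 78.3 at 3 ng, which overlapped (exact permutation test, p = 0.3). Markers of fibroblasts (5 of 5 measured), macrophages (4 of 4), dividing cells (3 of 3) and B lymphocytes (3 of 3) lay above background on all 6 arrays. Of the kidney tubule (8 measured), hepatocyte (4) and neuron (4) markers, 0 did. The summed signal of the fibroblast markers was 37360 to 41490 at 10 ng and 37940 to 39690 at 3 ng, and that of the kidney tubule markers 171 to 238 and 216 to 265.

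No probe set differed between 3 ng and 10 ng at an adjusted p under 0.05 (limma with Benjamini-Hochberg adjustment over 45037 probe sets, 0% called; smallest adjusted p = 0.119). At an unadjusted p under 0.05 there were 3990 (8.86%), of which 2103 (4.67%) measured higher and 1887 (4.19%) lower at 3 ng. That threshold would pass a share of about 0.05, both directions counted, if no signal differed between the inputs. A p that misses the threshold does not show that a signal was kept, so a probe set is called kept here only where the 95% interval of its log2 fold change lay wholly within 2-fold either way. By that rule 15052 probe sets (33.4%) were kept and the other 29985 were undecided. A bound of 1.5-fold kept 6977 (15.5%). Over genes, each represented by its brightest probe set, 8334 of 18193 (45.8%) were kept.

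Log2 fold changes (3 ng minus 10 ng, on the scale log2 of signal plus 3.9) had a median of 0.01 over all probe sets, with quartiles of -0.27 and 0.36. In 3455 probe sets (7.67%) all 3 arrays at 3 ng lay above all 3 at 10 ng, and in 3219 (7.15%) all 3 lay below. Such a separation is the most extreme ordering of 3 against 3 arrays, for which an exact permutation test gives p = 0.1. A share of about 0.1 would therefore separate without any difference between the inputs, split evenly between the higher and the lower side. Non-overlap of a single probe set, or in a share near or below that level, is thus no evidence of a difference by itself. Centring each array on its own median moved the median of all probe sets from 0.01 to -0.08, a shift of the whole scale of about the size of the class and family medians below. The split of non-overlapping probe sets then became 5.25% higher and 10.4% lower. Directions of small size are therefore given with what other scalings showed.

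Signal at 10 ng separated the kept transcripts from the undecided ones. Of 506 probe sets with a mean of 10000 or more at 10 ng, all were kept, and so were 99.2% of the 2439 between 3000 and 10000 and 94.9% of the 3645 between 1000 and 3000. The share was 81.0% of 6177 between 300 and 1000 and 44.9% of 7166 between 100 and 300. It came to 3.49% of the 8850 between background and 100 and to 0.855% of the 16254 below background. Both of these shares rest on the pseudocount of 3.9. With the 1.5-fold bound the shares were 99.6%, 90.7%, 64.8%, 28.6% and 1.84% from the brightest class down to 100, and 0 in both dimmer classes.

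The spread among replicate arrays followed the same order. The median SD of log2 values among the 3 arrays at 10 ng was 0.10 in the brightest class, 0.20 between 300 and 1000, and 0.77 below background. At 3 ng it was 0.09, 0.27 and 0.75. Between 100 and 300 the SD at 3 ng exceeded that at 10 ng in 63.8% of probe sets, and at 10000 and over in 42.4% (classes by the mean of the 6 arrays). Pairs of arrays at 10 ng had Pearson's r of 0.947 to 0.948 across probe sets, pairs at 3 ng 0.932 to 0.937, and pairs of 1 array of each input 0.935 to 0.939. These are descriptions across probe sets, which are not independent. An array at 3 ng thus resembled an array at 10 ng about as closely as it resembled another at 3 ng. Of probe sets at 100 or more, 95.6% to 96.2% lay within 2-fold of each other in a pair at 10 ng, 90.2% to 91.5% in a pair at 3 ng and 89.2% to 92.8% in a mixed pair.

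**Figure D1:**
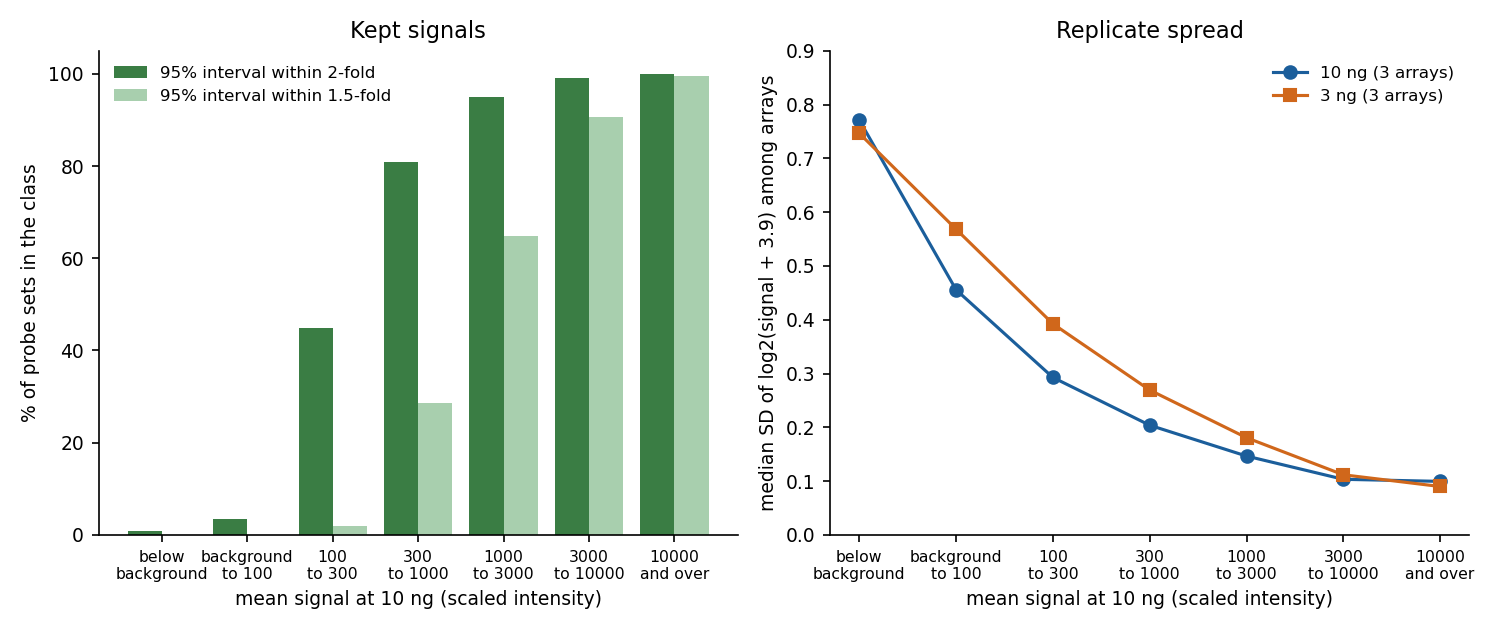
Left, the share of probe sets in each class of mean signal at 10 ng (scaled intensity) whose 95% interval lay within 2-fold (dark bars) or 1.5-fold (pale bars). Right, the median SD of log2 values among the 3 arrays at 10 ng (circles) and at 3 ng (squares). The kept share climbs from 0.855% below background to 100% at 10000 and over, while the SD drops from 0.77 to 0.10 at 10 ng and from 0.75 to 0.09 at 3 ng.

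Classes also differed in direction, by amounts that are small beside the spread of single probe sets. The median log2 fold change was 0.20 below background and 0.03 between background and 100, then -0.03, -0.07, -0.07, -0.01 and -0.01 in the brighter classes in rising order. The 10 ng arrays enter both the class and the fold change, which by construction tilts these medians. With classes by the mean of the 6 arrays, the medians were 0.09, 0.11, 0.0051, -0.06, -0.06, -0.0045 and -0.003 in the same order. Leaving out the second array at 3 ng turned the medians at 3000 to 10000 and at 10000 and over to the other side of 0 (0.01 and 0.04). The median at 10000 and over also turned without the second array at 10 ng.

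Middle signals measured lower more often than higher at 3 ng. In classes by the 6 arrays, the groups did not overlap on the lower side for 15.2% of the 3645 probe sets at 1000 to 3000 and on the higher side for 7.41%. At 300 to 1000 the shares were 11.6% and 7.15% of 6254. This excess on the lower side remained under quantile normalization (12.5% against 9.03%, and 11.1% against 7.48%) and widened when arrays were centred (24.1% against 3.62%, and 18.2% against 4.38%). Under both scalings it was not confined to middle signals. At 3000 to 10000 the lower and higher shares were 13.6% and 9.52% after quantile normalization, and 17.3% and 2.7% after centring. As deposited they were 10.6% and 11.7%. At 100 to 300 they were 8.89% and 6.92% after quantile normalization, 11.3% and 5.66% after centring, and 7.44% and 8.1% as deposited. At 10000 and over the direction was the other way as deposited: 75 of 519 probe sets lay wholly higher at 3 ng (14.5%) and 3 lower (0.578%). That excess depended on the scaling, since centring left 2 higher and 5 lower, and quantile normalization 40 and 51.

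**Figure D2:**
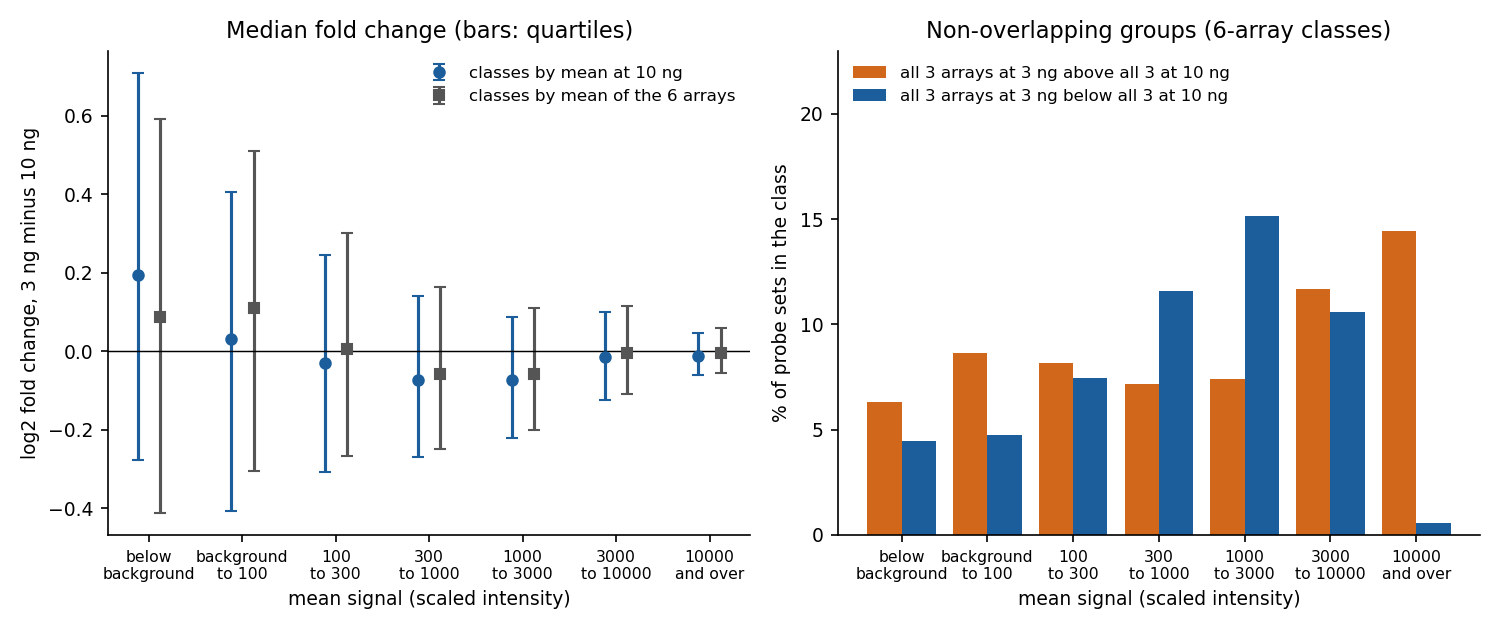
Left, the median log2 fold change (3 ng minus 10 ng) with quartiles as bars, for classes of mean signal at 10 ng (circles) and of the mean over the 6 arrays (squares). Right, the share of probe sets whose 3 arrays at 3 ng all lay above (orange) or all below (blue) the 3 at 10 ng, in classes by the 6 arrays, as deposited. The lower side peaks at 15.2% in the class from 1000 to 3000, and the higher side reaches 14.5% at 10000 and over.

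Among the brightest transcripts the differences were a few percent to about 1.3-fold. In classes by the 6 arrays, the largest was on the probe set 1429060_at of Malat1, a nuclear noncoding RNA, with 8777, 10073 and 9631 at 10 ng and 12202, 11807 and 13086 at 3 ng (ratio of means 1.30; log2 fold change 0.38, 95% interval 0.20 to 0.57). In classes by the mean at 10 ng, which put that probe set below 10000, the largest was in Ywhaz, an adapter protein gene of the 14-3-3 family, with 10654, 8735 and 10767 against 12258, 14031 and 11470 (0.33, 0.09 to 0.56). The genes that follow are placed by the mean at 10 ng. Rbbp4, which encodes a histone-binding protein, was one of the 2 genes at 10000 and over with the narrowest interval: 18219, 17636 and 17410 at 10 ng, and 19076, 18454 and 18572 at 3 ng. Its arrays did not overlap, yet its log2 fold change of 0.07 (-0.07 to 0.22) was among the best bounded. Eef1b2, a translation elongation factor gene, measured 15634, 16238 and 16092 at 10 ng and 16935, 16806 and 16754 at 3 ng (0.07, -0.07 to 0.22). In the class below, Usp9x, a deubiquitinase gene, measured 9852, 9381 and 9654 against 10048, 10016 and 10063 (0.06, -0.10 to 0.22). Wasf1, an actin regulator gene, measured 9494, 10086 and 9587 against 10923, 10821 and 10989.9 (0.17, 0.01 to 0.33). Between 1000 and 3000, Pik3r1, a regulatory subunit gene of phosphoinositide 3-kinase, measured 2926, 3006 and 2909 against 2831, 2877 and 2725 (-0.07, -0.28 to 0.14). Smarce1, a chromatin remodelling gene, measured 2868, 2667 and 2659 against 3167, 3201 and 3120 (0.21, -0.0005 to 0.42). In all 6 genes the arrays of the inputs did not overlap while the interval lay well inside 2-fold. They were picked for narrow intervals in these same arrays, a choice that makes non-overlap likely even where the difference is small.

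Gene families were compared through 1 probe set a gene, and no member of the 23 families was called. For all 18193 genes, 3.69% measured higher and 5.28% lower at an unadjusted p under 0.05, and the median log2 fold change was -0.02. Non-overlapping arrays were seen on the higher side in 6.74% of genes and on the lower in 8.87%. In 20 families the median lay below 0 and in 3 above it, from -0.37 (tubulins) to 0.25 (keratins); centring the arrays put the zinc finger proteins below 0, and quantile normalization put the Hox genes and splicing factors above it. Leaving out 1 array turned the median of 10 of the 23 families to the other side of 0: cytosolic ribosomal proteins, heat shock proteins, splicing factors, kinesins, Hox genes, zinc finger proteins, olfactory receptors, chemokines, solute carriers and cytochrome P450 genes. The other 13 kept their side in every alternative. The kept share was higher in bright families than in dim ones, without following signal from family to family: it ran from 100% of the glycolysis enzymes (17 genes, median signal at 10 ng 2564) and of the normalization genes (11 genes, 9488) to 0 of 38 olfactory receptors (10.6), and was 91.4% of aminoacyl-tRNA synthetases (561.5) but 57.1% of the brighter tubulins (807).

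Ribosomal protein genes of the cytosol, whose products build the ribosome, were the brightest family (median signal 14400 at 10 ng and 13680 at 3 ng) and 40 of 42 were kept, 37 of them within 1.5-fold. Their median was -0.04, with quartiles of -0.10 and 0.01, and it lay above 0 without the second array of either input. Rpl37a measured 18584, 21792 and 18325 at 10 ng and 20508, 17183 and 19958 at 3 ng. Rpl38 measured 18082, 20494 and 17714 against 19437, 17495 and 18012. In both genes the 2 inputs overlapped, and their probe sets are of the _x_at kind. At an unadjusted p under 0.05, 2 members were higher (4.76%) and 1 lower (2.38%), against 3.69% and 5.28% of all genes. The lower one, Rpl12 (582, 509 and 553 against 416, 404 and 305; -0.55), was read by a probe set far dimmer than the family's median, as was Rpl37 among the higher ones (329, 242 and 366 against 407, 553 and 434; 0.58).

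Genes of the mitochondrial ribosome, which translates the few proteins encoded in mitochondrial DNA, were kept in 71 of 73 cases and had a median of -0.11 (-0.21 with arrays centred). At an unadjusted p under 0.05, 8 of 73 measured lower (10.96%) and 0 higher, where 5.28% of all genes measured lower. Among probe sets with 1 symbol at 1000 to 3000, the class that holds the family's median signal of 1545, the share lower was 11.6%. Non-overlap was seen on the lower side in 12 genes (16.4%) and on the higher in 1 (1.37%), against 15.8% and 6.49% in that class, so both shares on the lower side were near those of other transcripts of like signal. Mrps36 measured 4088, 4374 and 3701 at 10 ng and 2837, 2609 and 2887 at 3 ng (-0.54). Mrps25 measured 1704, 1805 and 1736 against 1333, 1055 and 1234 (-0.54). The lowest was Mrpl37, at 795, 899.5 and 678 against 333, 456 and 561 (-0.83, -1.32 to -0.35). All 3 were picked after their values were seen. The brightest member, Mrpl52, overlapped, at 10174, 11944 and 9756 against 9664, 8798 and 10423 (-0.14).

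Subunits of the respiratory chain and ATP synthase were kept in 72 of 81 cases, with a median signal of 5226 at 10 ng and a median log2 fold change of -0.09. Of them 8 measured lower (9.88%) and 0 higher at an unadjusted p under 0.05, where 5.28% of all genes and 5.73% of probe sets with 1 symbol at 3000 to 10000 measured lower. The 2 brightest overlapped: Cox7a2 of complex IV measured 14620, 17739 and 15202 against 15838, 13912 and 15309, and Ndufa4 12328, 14939 and 11819 against 13890.2, 11767 and 12460. Ndufv1, the flavoprotein subunit of complex I, was the lowest member and was chosen for mention after its values were seen. Its 3 probe sets all lay lower at 3 ng without overlap: 2338, 2086 and 2271 against 1166, 1100 and 1352 for 1415966_a_at, 2961, 2077 and 2407 against 1119, 1042 and 1373 for 1456015_x_at, and 876, 1099 and 857 against 639.5, 660.0 and 774 for 1415967_at. Their log2 fold changes were -0.89, -1.07 and -0.44 (adjusted p = 0.129, 0.141 and 0.470). At 0.3 ng the first of these measured 1295, 1325 and 1089, a comparison that shares the 10 ng arrays.

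Proteasome subunits, which degrade tagged proteins, were kept in 37 of 39 cases (median -0.09), with 4 lower (10.3%, near the 11.6% of probe sets with 1 symbol at 1000 to 3000) and 0 higher at an unadjusted p under 0.05. Psmd14, a deubiquitinase of the proteasome lid, was the lowest: 3135, 3438 and 3068 at 10 ng and 2376, 2297 and 2316 at 3 ng (-0.46, -0.68 to -0.24). Psmb6, the brightest, overlapped, at 7174, 8545 and 6546 against 6701, 5845 and 7096. The chaperonin that folds actin and tubulin had a median of -0.22 in 9 genes, of which 8 were kept. Cct2 measured 7932, 9324 and 7756 against 8283, 6663 and 7279 (-0.17), and Tcp1 4575, 5498 and 4574 against 4112, 3671 and 4385 (-0.27). In Tcp1, picked after its values were seen, the inputs did not overlap. In Cct2 and Cct3, the 2 brightest, they did (Cct3 5790, 7537 and 5944.5 against 6087, 5352.5 and 4563, -0.27). Heat shock and DnaJ genes were of mixed signal, and 47 of 69 were kept. At an unadjusted p under 0.05, 3 measured higher and 5 lower (4.35% and 7.25%, against 3.69% and 5.28% of all genes). Hspe1, the mitochondrial cochaperonin, measured 13815, 15140 and 13662 against 15759, 12309 and 14437, and the interval of its log2 fold change was -0.23 to 0.21. Hspa1b, an inducible chaperone, measured 2029.7, 2224 and 2177 against 2490.1, 3213 and 3160.2 (0.45), and Dnajb9, a chaperone of the endoplasmic reticulum, 3054, 2152 and 3661 against 3819, 7673 and 5305 (0.90). Both lay higher at 3 ng on all 3 arrays. Dnaja2, a cochaperone of the cytosol, measured 2945, 3110 and 3562 against 2546, 2268 and 2559 (-0.38), and Dnajb1, another, 865, 872 and 1246 against 701, 649 and 665 (-0.54), both lower without overlap. These 4 were chosen after their values were seen; the others on the lower side were Hspb1, Hspa4l and Dnajc6.

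Genes of protein synthesis and RNA processing were kept in more than 9 of 10 cases: 43 of 47 initiation factors (91.5%), 32 of 35 aminoacyl-tRNA synthetases (91.4%) and 46 of 49 splicing factors and heterogeneous nuclear ribonucleoproteins (93.9%). Their median log2 fold changes were -0.04, -0.04 and -0.01, the last above 0 under quantile normalization. Their median signals at 10 ng were 2777, 561.5 and 4016. In the classes holding these signals, 94.7%, 82.5% and 99.2% of probe sets with 1 symbol were kept. Of all genes 45.8% were. Eif5a measured 11657, 11794 and 12209 at 10 ng and 13891, 13119 and 12989.5 at 3 ng (0.17), higher without overlap. Eif2s2, a subunit of the factor that brings the initiator tRNA, measured 5787, 5169 and 5411 against 7339, 7041 and 7310 (0.41), and Eif2d 2667, 3464 and 2202 against 1326, 1447 and 1285 (-1.01, adjusted p = 0.165). These were the highest and the lowest of the family. Qars, the glutaminyl-tRNA synthetase gene, measured 4908, 5256 and 5060.0 against 4485, 4628 and 4038 (-0.21). Srsf1 overlapped (14004, 15911 and 13536 against 15599, 13108 and 14653), as did Hnrnpk (13800.2, 14783 and 14046 against 14775, 14832 and 14341). Srsf9, another splicing regulator, measured 555, 642 and 627 against 990.1, 1213 and 844 (0.72).

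Replication-dependent histone genes, whose messages mostly end without a poly(A) tail, had only 10 members with a probe set of their own, and 6 were kept. Their median of 0.14 came with 2 of the 10 members lower and 0 higher at an unadjusted p under 0.05. Of all genes 5.28% measured lower and 3.69% higher. H2bc21 measured 2951, 3278 and 3723 against 2626, 2927 and 2238 (-0.35), and H2ac19 548, 561 and 413 against 328, 335 and 402 (-0.50). H1f2, the brightest, overlapped, at 6213, 5019 and 6514 against 7237, 7598 and 6202 (0.25). In DNA replication licensing 22 of 25 genes were kept. Mcm4, a helicase subunit, measured 10061, 8484 and 10486 against 11569, 11906 and 10222, and Pcna, the sliding clamp, 7056, 8117 and 6842 against 6862, 5584 and 7195; both overlapped.

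Tubulins, the subunits of microtubules, had the lowest median of the families, -0.37 over 14 genes, of which 9 were above background on all 6 arrays and 8 were kept. At an unadjusted p under 0.05, 4 measured lower (28.6%) and 0 higher. The share lower was 5.28% of all genes. It was 7.47% of probe sets with 1 symbol at 300 to 1000, the class that holds the family's median signal of 807. Tubb2b measured 1704, 1856 and 1978 at 10 ng and 1525, 1489 and 1201 at 3 ng (-0.40). Tubb4b measured 2137, 2748 and 1994 against 1879, 1695 and 1908 (-0.32). The 2 brightest members did not share this. Tubb5 measured 11011, 12004 and 11257 against 12016, 12005 and 11364 (0.05, -0.12 to 0.21). Tuba1a measured 7258, 7268 and 6288 against 7710, 6956 and 8222 (0.14, -0.08 to 0.35). Tubb3, of neurons, measured 52.7, 41.0 and 59.2 at 10 ng and lay below background on all 3 arrays at 3 ng, at least 1.497-fold lower. Kinesins, the motors that run on microtubules, were kept in 20 of 37 cases; Kif2a measured 5436, 5977 and 5273 against 5531, 4898 and 5331.

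Matrix and filament genes were split by signal. Of 42 collagen genes 22 were above background on all 6 arrays and 16 were kept. Col1a1, the main fibrillar collagen of connective tissue, measured 10084, 10465 and 9007 against 9844, 10477 and 10135 (0.05, -0.14 to 0.23), and Col5a2 2201, 2450 and 2169 against 1647, 1481 and 1700.4 (-0.50). Of 44 keratins 14 were above background on all 6 arrays and 4 were kept. The keratin median of 0.25, the highest of the families, rested on dim members: the median signal was 32.2 at 10 ng. The 2 brightest keratins measured the other way, Krt18 with 5584, 6398 and 5045 against 5003, 4122 and 5387 (-0.23) and Krt8 with 2865, 4075 and 2876 against 2328, 2591 and 2745 (-0.34).

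Of 329 zinc finger protein genes 143 were kept (43.5%, near the 45.8% of all genes), with 14 higher (4.26%) and 6 lower (1.82%) at an unadjusted p under 0.05. Of all genes 3.69% measured higher and 5.28% lower. Among probe sets with 1 symbol at 100 to 300, the class that holds the family's median signal of 153, the shares were 4.19% and 3.71%. The family's median of 0.02 turned to -0.08 when arrays were centred. Zfp106, the brightest, measured 9033, 9030.3 and 8461 against 9572, 8479 and 9074 (0.03), and Zfp266 8382, 7688 and 9184 against 9811, 9924 and 9392 (0.21). Zfp64 measured 553, 382 and 447 against 262, 178 and 236 (-1.02). Of 33 Hox genes 12 were kept (36.4%); Hoxa10 measured 3147, 2896 and 3038 against 2539.8, 3164 and 3397 (-0.01, -0.28 to 0.27). Hoxc6 measured 122, 115 and 114 against 188, 282 and 251 (0.99). Of 45 chemokine genes and receptors 12 were kept (26.7%): Cxcr4 measured 8899, 9076 and 9005 against 9619.8, 9414 and 9881 (0.10), and its ligand Cxcl12 7352, 7432 and 7541 against 6515, 6125 and 6578 (-0.22). In this ligand and receptor pair the arrays did not overlap and the directions were opposite, with both intervals inside 1.5-fold.

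Solute carriers were kept in 112 of 309 cases (36.2%), with 10 higher (3.24%) and 8 lower (2.59%) at an unadjusted p under 0.05. Of all genes 45.8% were kept, 3.69% measured higher and 5.28% lower. Slc2a1, the glucose transporter of most cultured cells, measured 12427, 13937 and 12794 against 13470, 12006 and 13263 (-0.02, -0.19 to 0.16). Slc1a4, a neutral amino acid transporter, measured 3342, 3328 and 3635 against 2395, 1796 and 1599 (-0.85), lower without overlap. Of 70 cytochrome P450 genes 8 were above background on all 6 arrays and 6 were kept, among them Cyp20a1 (7746, 6241 and 8448 against 8035, 8596 and 7967; 0.14). No olfactory receptor lay above background on all 6 arrays, and Olfr156, the brightest at 10 ng, measured 74.0, 45.7 and 41.3 there and 18.2, 2.9 and 36.1 at 3 ng.

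All 17 glycolysis enzymes and all 11 genes often used to normalize expression were kept. Their median signals at 10 ng were 2564 and 9488. In the classes holding these signals, 94.7% and 99.2% of probe sets with 1 symbol were kept. Ldha measured 12377, 14256 and 11717 against 11832, 9630.4 and 11849.9 (-0.20), and Aldoa 10961, 11636 and 10973 against 11376, 11325 and 11524 (0.03). Pfkp, the platelet phosphofructokinase, was the lowest, at 2775, 2930.3 and 2889.9 against 2140.2, 2101 and 2189 (-0.42, -0.64 to -0.20). B2m overlapped, at 13728, 17017 and 13551 against 14356, 13447 and 14440 (-0.06). Hprt measured 3239.6, 3668 and 3106 against 2795, 2145 and 2528 (-0.43, -0.71 to -0.15), lower on all 3 arrays. Actb lay higher without overlap on both of its probe sets, at 15633, 17145 and 16541 against 18289, 17499.6 and 17157 on the brighter (0.10). Both genes were kept within 2-fold, on opposite sides of 0.

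**Figure D3:**
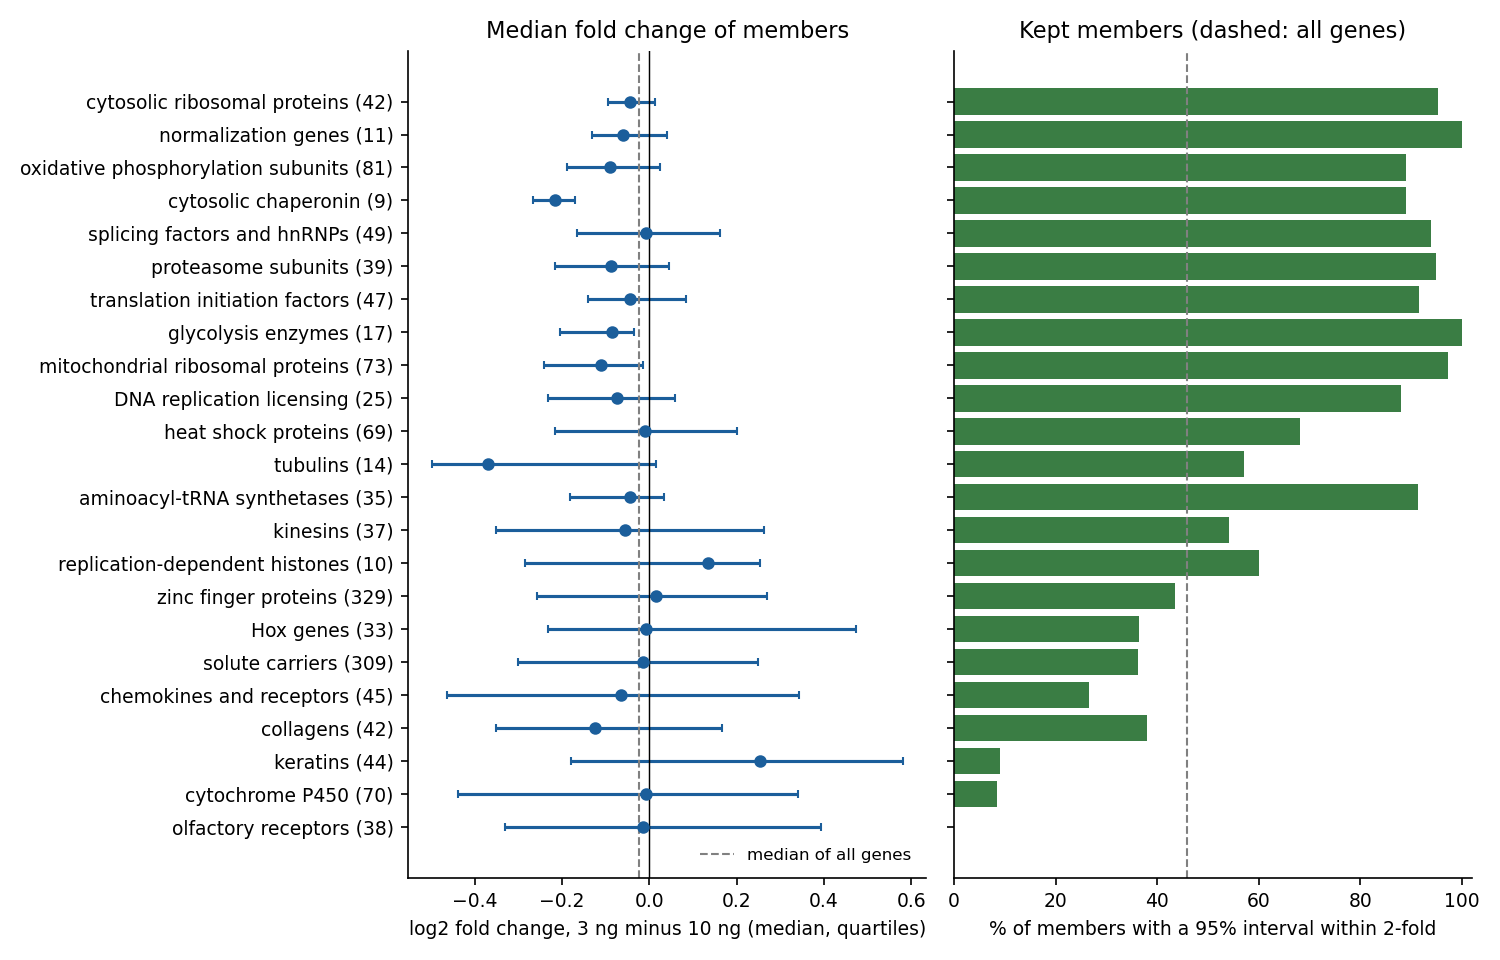
Left, the median log2 fold change (3 ng minus 10 ng) of the measured members of each family, with quartiles as bars and the number of members in brackets; the dashed line is the median of all genes, -0.02. Right, the share of members whose 95% interval lay within 2-fold, with 45.8% of all genes as the dashed line. Families are ordered by their median signal at 10 ng, brightest at the top: kept shares are 95.2% in cytosolic ribosomal proteins and 0 in olfactory receptors, with exceptions to the order between them, while the medians stay between -0.37 and 0.25.

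Genes read by more probe sets were kept more often and were also brighter. Part of this is by construction, since each gene took its brightest probe set and more probe sets give a wider choice. Of 9183 genes with 1 probe set, 30.9% were kept at a median signal of 47.7 at 10 ng. With 2 probe sets the share was 53.3% of 4695 (signal 252), with 3 it was 64.6% of 2366 (549.7), and with 4 or more 75.3% of 1949 (1145). Their median fold changes were -0.02, -0.04, -0.03 and -0.02. With all probe sets of these genes counted, the kept shares were 30.9%, 38.1%, 40.1% and 42.9%. The median signals at 10 ng were then 47.7, 90.05, 112.6 and 143.7. Within a class of signal the shares no longer rose: among probe sets at 100 to 300 over the 6 arrays, 49.3% were kept where the gene had 1 probe set and 43.0% where it had 4 or more. At 300 to 1000 these were 87.1% and 78.4%.

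The balance of higher and lower signals varied with the number of probe sets. Among probe sets at 100 or more, those that are a gene's only probe set lay wholly lower at 3 ng in 13.4% of 3633 cases and wholly higher in 4.73%. Where the gene had 2, the shares were 11.3% and 5.92% of 4579; where it had 3, 11.0% and 8.55% of 3756; and with 4 or more, 9.27% and 10.2% of 5309. The order from 1 to 4 was the same with arrays centred (20.7%, 17.4%, 16.7% and 15.4% lower; 2.12%, 2.71%, 4.37% and 5.52% higher) and under quantile normalization (13.9%, 11.4%, 11.0% and 10.2% lower; 4.404%, 5.46%, 8.17% and 9.40% higher). Probe sets of 1 gene share its RNA and are not replicates, and no test was run on these shares.

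**Figure D4:**
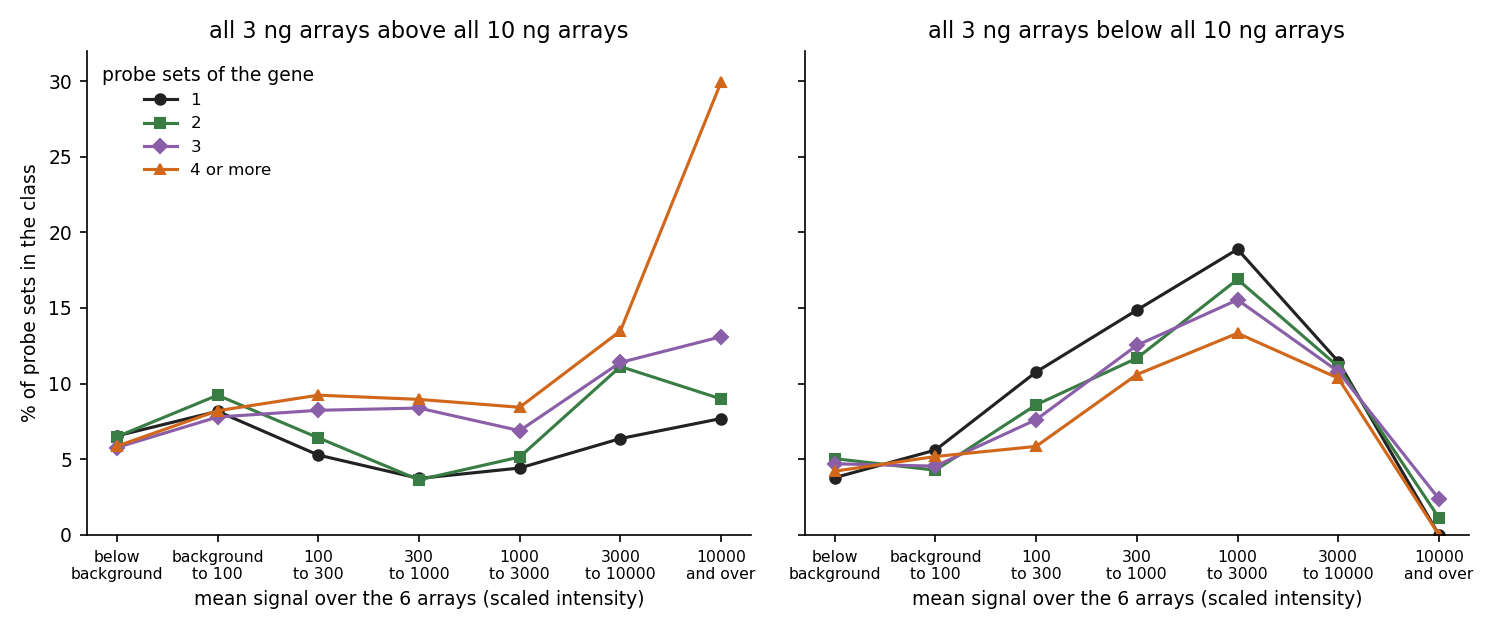
The share of probe sets whose 3 arrays at 3 ng all lay above (left) or all below (right) the 3 at 10 ng, by class of the mean signal over the 6 arrays, for genes with 1, 2, 3 and 4 or more probe sets, as deposited. From 100 to 3000 the lower side is widest for genes with 1 probe set (18.9% at 1000 to 3000, against 13.3% with 4 or more). At 10000 and over, 29.9% of probe sets of genes with 4 or more lie on the higher side, in a class whose direction depends on the scaling.

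Probe sets of one gene often differed in fold change. In 4282 genes with at least 2 probe sets at 100 or more, the fold changes of the 2 brightest differed by a median of 0.24 (log2) and had the same sign in 2386 (55.7%); they differed by more than 2-fold in 186 (4.34%). Of 392 genes with at least 2 non-overlapping probe sets, all were higher in 100, all lower in 154, and the directions were mixed in 138. The widest mixed case was Meis1, a homeobox transcription factor gene. Its probe set 1443260_at measured 309.9, 282 and 368 against 132, 136 and 202 (-1.03), while 1459423_at measured 73.2, 37.0 and 90.5 against 156, 171 and 423 (1.77). Ywhaz, a 14-3-3 protein gene, had 7 probe sets, all kept: 3 lay higher without overlap and 4 overlapped, with log2 fold changes from -0.13 to 0.33. Morf4l2, a chromatin protein gene, had 3 probe sets higher (0.22 to 0.26) and 1 lower (-0.19). For the 3 higher ones, all of the _x_at kind, the values at 10 ng were between 9641 and 12212 and at 3 ng between 11464 and 14512.

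Probe sets without a gene symbol, many of them designed on expressed sequence tags, measured higher more often than lower; this split was made after the data were seen. At 100 to 300 over the 6 arrays, the 1250 without a symbol had a median of 0.18, with 12.1% wholly higher and 50 of them wholly lower, against -0.02, 7.34% and 8.11% for the 6114 with 1 symbol. At 300 to 1000 it was 0.13, 14.4% and 4.94% for 709, against -0.07, 6.20% and 12.3% for 5432. Over all signals of 100 or more, 13.6% of 2470 probe sets without a symbol lay wholly higher and 4.86% wholly lower. These were 9.07% and 8.14% with arrays centred, while those with 1 symbol were then 3.81% and 17.3%. Their kept shares were lower too, 26.2% against 46.8% at 100 to 300.

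The 12 probe sets with the smallest unadjusted p, listed after the data were seen, all had non-overlapping arrays: 7 higher and 5 lower at 3 ng, with adjusted p between 0.119 and 0.129 (limma). Pold1, the catalytic subunit gene of DNA polymerase delta, came first. Its probe set 1456055_x_at measured 3034, 4328 and 3299 at 10 ng and 1309, 1495 and 1021 at 3 ng (log2 fold change -1.48, -1.87 to -1.09). At 0.3 ng it measured 3066, 1004 and 572. Its other probe set, 1448187_at, overlapped (166, 289.9 and 325 against 178, 103 and 89.0). Reck, an inhibitor of matrix metalloproteinases, measured 1063, 1046 and 1096 against 504, 479 and 497 on its single probe set (-1.11, -1.42 to -0.80), so the arrays of each input lay within a few percent of each other. Ric8a, a regulator of G protein alpha subunits, measured 2218, 2115 and 2588 against 1173, 753 and 1059.6 (-1.23), and 1 other of its 4 probe sets lay lower without overlap.

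On the higher side, Ptar1, a prenyltransferase subunit gene, measured 928, 825 and 996 at 10 ng and 1973, 1815 and 2255 at 3 ng on 1432161_a_at (1.13, 0.83 to 1.44). A second of its 4 probe sets, 1431073_at, gave 563, 534 and 559.5 against 908, 924 and 1406 (0.93), and the 2 dim ones overlapped. Zfp445, a zinc finger gene, measured 146, 104 and 143 against 597, 557 and 431 on 1427254_at (1.98, 1.43 to 2.54). A dimmer probe set, 1427255_s_at, also lay higher without overlap (90.6, 81.6 and 59.2 against 168.5, 217 and 134; 1.12, 0.34 to 1.90). Its brightest probe set, 1454774_at, overlapped and was kept (576, 636 and 748 against 593, 780.3 and 481; -0.10). The interval of the brightest, -0.56 to 0.36, lay wholly below that of 1427254_at.

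Malat1, a long noncoding RNA retained in the nucleus, had most of its probe sets on one side: 6 of 7 lay higher at 3 ng without overlap. Of all probe sets 7.67% did so. The 7 read the same RNA on the same arrays and are not replicates, and the gene was picked after its values were seen. The widest, 1427285_s_at, measured 1447, 1635 and 2123 at 10 ng and 3396, 3823 and 3945 at 3 ng (1.11, 0.79 to 1.44; adjusted p = 0.119). The others of the 6 had log2 fold changes from 0.37 to 0.72, for example 4028, 4051 and 4442 against 6222, 6112 and 6599 on 1418189_s_at (0.60, 0.40 to 0.79). The seventh, 1436202_at, measured 3034, 3336 and 3711 against 2904, 3466 and 3669 (-0.01, -0.28 to 0.27). At 0.3 ng the probe set 1418189_s_at measured 8486, 8089 and 9969, above its 3 ng arrays, but the widest, 1427285_s_at, measured 3345, 1983 and 2952, which overlapped its values at 10 ng. Neat1 and Kcnq1ot1, also long nuclear RNAs and also picked after their values were seen, were mixed. The brighter Neat1 probe set overlapped (2932, 3634 and 3087 against 3242, 2796 and 2783), and the dim one, 1442881_at, lay higher (46.9, 93.4 and 46.4 against 182, 129 and 166). Of 6 Kcnq1ot1 probe sets 3 lay higher without overlap and 3 overlapped; the brightest gave 1205, 1136 and 1705 against 1723, 1900.4 and 2397 (0.58).

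Most probe sets above background at one input were also above it at the other. Of 24946 above background on all 3 arrays at 10 ng, 23101 (92.6%) were so on all 3 at 3 ng and 116 (0.465%) on none. Of 25031 above it on all 3 at 3 ng, the same 23101 made up 92.3%, and 204 (0.815%) were below it on all 3 at 10 ng. The lost and gained probe sets were dim where they were present, with median signals of 53.0 and 50.2. Of the 116 lost, 12 had a mean of more than 100 at 10 ng, and of the 204 gained 9 had one at 3 ng. Of these groups 27.6% and 33.8% had no symbol.

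Among those lost, Ret, a receptor tyrosine kinase gene, measured 134, 144 and 90.1 at 10 ng on 1436359_at and was below background on all 3 arrays at 3 ng (2.4, 4.3 and 3.4), at least 3.57-fold lower (adjusted p = 0.119). Tnfsf11, which encodes the cytokine RANKL, measured 83.0, 109 and 136 and then 3.9, 6.9 and 1.9, at least 3.18-fold lower (adjusted p = 0.129). Uroc1, a histidine breakdown enzyme gene, measured 84.6, 307 and 158 and then 10.9, 5.4 and 7.9, at least 4.76-fold lower (adjusted p = 0.141). A bound is the geometric mean of the brighter group over the background level. The other probe sets of Ret, Tnfsf11 and Uroc1 overlapped between inputs. Among those gained, Zfp59 measured 20.0, 11.1 and 29.9 at 10 ng and 95.3, 113 and 107 at 3 ng, at least 3.12-fold higher (adjusted p = 0.278). The probe set 1433346_at, with no symbol, measured 2.8, 2.7 and 2.0 against 81.3, 77.5 and 162, at least 2.99-fold higher, and 3.1, 3.4 and 3.0 at 0.3 ng. It was the one probe set called when all 12 arrays entered a single fit (adjusted p = 0.0312).

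Control transcripts gave the array-wide differences, over 21 measures compared by exact permutation tests in which 3 against 3 arrays cannot go below p = 0.1. The middle probe set of 18S ribosomal RNA, which has no poly(A) tail, measured 3324, 4344 and 4126 at 10 ng and 10470, 7695 and 10320 at 3 ng, 2.42 times higher on average (exact permutation test, p = 0.1, adjusted p = 0.3). Leaving out any 1 array gave ratios from 2.24 to 2.65. The 5′ probe set gave 174, 193 and 335 against 786, 839 and 857 (3.53 times), and the 3′ probe set 137, 142 and 157 against 235, 223 and 253 (1.63 times), also at p = 0.1 each by the exact permutation test. All 3 probe sets of 18S ribosomal RNA thus lay wholly higher at the lower input. At 0.3 ng, against the same 10 ng arrays, the middle probe set measured 11770, 12200 and 12380, and in kidney RNA at 10 ng 8102, 7590 and 5816.

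The ratio of 3′ to 5′ signal, a measure of how far copying reached along a transcript, was given by 3 control genes. For beta-actin the inputs overlapped, at 3.75 ± 0.170 at 10 ng and 3.70 ± 0.224 at 3 ng (SD, n = 3; exact permutation test, p = 0.9). For Gapdh they overlapped too, at 1.13 ± 0.0242 and 1.11 ± 0.0245 (exact permutation test, p = 0.5). For the transferrin receptor they did not: the ratio was 223, 25.5 and 106.5 at 10 ng and 8.87, 16.3 and 15.4 at 3 ng (exact permutation test, p = 0.1, the lowest possible; adjusted p = 0.3). Its 5′ signal was below background on all 3 arrays at 10 ng (3.0, 18.6 and 4.5) and near it at 3 ng (55.4, 35.6 and 23.8), while its 3′ signal overlapped (668, 473 and 479 against 492, 579 and 367). The beta-actin 3′ control itself measured 6884, 7193 and 6732 against 8014, 7367 and 7656, 1.11 times higher without overlap (exact p = 0.1, adjusted p = 0.3). The hybridization controls, added after copying, averaged 10990 ± 696 and 11020 ± 583 (exact permutation test, p = 0.9). Of the short interspersed repeats, B1 measured 4166, 4987 and 5036 against 5549, 5485 and 5005, and the brighter B2 probe set 16220, 19020 and 15960 against 17290, 16330 and 16740; both overlapped. A dimmer B2 probe set lay higher, at 1334, 908 and 1449 against 1565, 1935 and 1639. Whether the 18S signal moves with the gene classes above was not tested.

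**Figure D5:**
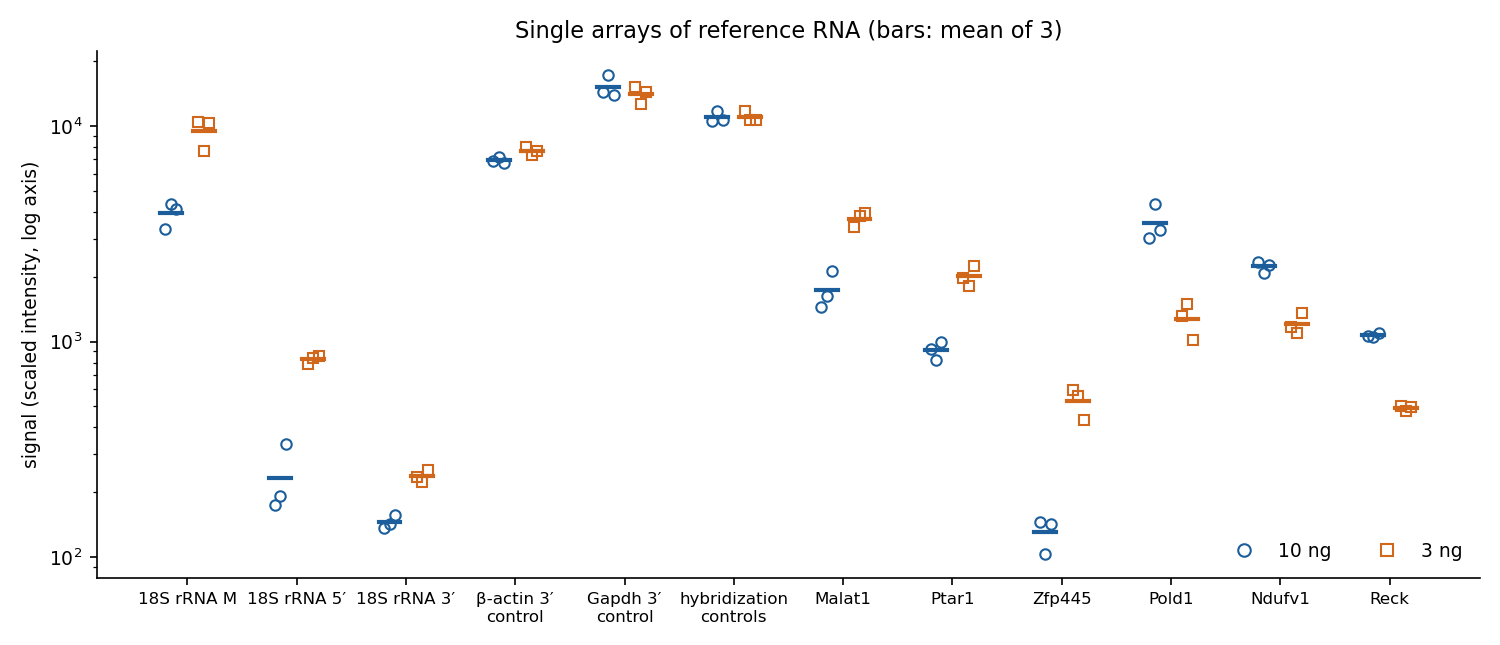
Signals of single arrays (scaled intensity, log axis) for reference RNA at 10 ng (blue circles) and 3 ng (orange squares), with the mean of 3 as a bar. The left side shows control probe sets and the right side genes picked after their values were seen. Each of these genes is shown by 1 probe set, the one with its smallest unadjusted p. Other probe sets of Malat1, Ptar1, Zfp445 and Pold1 overlapped in part. The 3 18S probe sets, Malat1, Ptar1 and Zfp445 lie higher at 3 ng and Pold1, Ndufv1 and Reck lower, without overlap, while the Gapdh and hybridization controls overlap.

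The same fit, run on other groups that share the 10 ng reference arrays, gives a scale for these counts. For 0.3 ng against 10 ng limma called 39 probe sets (0.0866%), 9 higher (0.02%) and 30 lower (0.0666%), and 5659 (12.6%) were kept within 2-fold. For kidney against reference RNA at 10 ng it called 17284 (38.4%), 6669 higher (14.8%) and 10615 lower (23.6%) in kidney, and 4858 (10.8%) were kept. Between 3 and 10 ng the corresponding numbers were 0 called and 15052 kept. The median SD among arrays was 0.359 at 10 ng, 0.429 at 3 ng and 0.762 at 0.3 ng.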

How the data were processed

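Values were the authors' deposited intensities, 1 per probe set and array, on a linear scale with a 2% trimmed mean of 500. Software, background correction, amplification and labelling: not given in the sources used here. Symbols came from the platform's annotation: 34945 probe sets carried 1 symbol, 932 several and 9160 none, and 0 of 34741 matched by gene ID changed in the RefSeq table. Each gene took the value of its brightest single-symbol probe set (mean log2 intensity, all 12 arrays).

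Without the 64 control probe sets, log2(intensity + 3.9), with the 10th percentile as pseudocount, entered limma (version 3.58.1, R 4.3.3; lmFit, then eBayes with a variance trend) for the 6 arrays, with no covariate, two-sided. Precision is limited by how few arrays there are. The code was tested on simulated data. By rule, named genes were drawn from the 2 brightest members of each family (none was called) and the 2 kept genes with the narrowest interval in each class of 1000 and over. Not all of the brightest members are printed. Every other gene was picked after its values were seen, among them all family members named for a low or high value. Members and lists were chosen with earlier results of these data known.

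Same-numbered arrays of the inputs deviated independently (r from -0.02 to -0.01 across probe sets), so the numbers do not pair them. The alternatives were 2 pseudocounts, centring, quantile normalization, 2 filters, other classes, no variance trend, 1 fit of all 12 arrays, a replicate block and leaving out each array.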

Additional observations from a re-analysis of the deposited data

How the results depend on the processing

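The absence of calls held in every alternative but one: a single fit of all 12 arrays, in which the 0.3 ng and kidney arrays share the estimate of spread, called 1 probe set, put 1965 at an unadjusted p under 0.05 and kept 9507. The 1.5-fold bound kept 6977, and a pseudocount at the background level kept 33635, since it shrinks the differences of dim probe sets; it also lowered the median SD to 0.269 at 3 ng and 0.228 at 10 ng. Leaving out each array in turn gave 0 calls, 2976 to 4422 at an unadjusted p under 0.05 and 12560 to 13817 kept.

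Centring arrays on their medians moved all medians down by about the same amount: to -0.084 for all probe sets, to 0.10, -0.067, -0.13, -0.17, -0.17, -0.11 and -0.11 for the classes by signal at 10 ng from dim to bright, and to -0.12, -0.14, -0.13 and -0.11 for genes with 1, 2, 3 and 4 or more probe sets. Family medians became -0.21 for mitochondrial ribosomal proteins, -0.19 for oxidative phosphorylation, -0.19 for the proteasome, -0.32 for the chaperonin, -0.11 for heat shock proteins, -0.17 for replication licensing, -0.083 for zinc finger proteins, -0.11 for solute carriers and -0.18 for glycolysis.

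Below background the median was 0.26 with a pseudocount of 1, 0.068 with one at background, 0.13 after quantile normalization, 1.25 and 0.32 after filters on the mean of the 6 arrays and on the highest group mean (which leave few such probe sets), and 0.088 and 0.089 in classes by the 6 arrays and by the 0.3 ng arrays. Between background and 100 it was -0.060 after quantile normalization, 0.17 and 0.19 after the filters and 0.11 by the 6 arrays. At 100 to 300 it was -0.074 and 0.0051 after quantile normalization and by the 6 arrays. At 1000 to 3000 it was -0.046 after quantile normalization and -0.058 and -0.054 in the other classes, and at 3000 to 10000 it was -0.0045 by the 6 arrays. Without 1 array the medians ran from 0.0013 to 0.11 at background to 100, from -0.078 to -0.069 at 1000 to 3000 and from -0.029 to 0.0071 at 3000 to 10000. For families these ranges were -0.076 to 0.022 for heat shock proteins, -0.38 to -0.24 for tubulins and -0.0097 to 0.078 for zinc finger proteins. The cause of these shifts was not tested. Of the main results, 570 alternative values stayed within the replicate spread or within 1.5 times the count, and 53 moved further.

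With the replicate number as a block, limma called 0 probe sets, with 3429 at an unadjusted p under 0.05 and 14348 kept, and the block changed no other call. What can be said of dim probe sets depends on the pseudocount. With 3.9, fewer than 4% of probe sets under 100 were precise enough to be kept. A pseudocount at the background level, which shrinks their differences, kept many more.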

Other observations

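Probe sets were also grouped by the suffix of their name. At a mean of 100 or more over the 6 arrays, 68.9% of 14674 _at probe sets, 82.0% of 2725 _a_at, 81.4% of 1438 _s_at and 75.8% of 1455 _x_at probe sets were kept. Their median log2 fold changes were -0.02, -0.06, -0.05 and -0.01. Groups lay wholly lower at 3 ng in 9.97%, 11.5%, 11.5% and 10.1%, and wholly higher in 8.52%, 7.12%, 7.79% and 8.59%.

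Summed marker signals of several cell types were close at both inputs for some lists and apart for others. The T lymphocyte markers summed to 11080 to 11830 at 10 ng and 10680 to 12150 at 3 ng, and the dividing cell markers to 10520 to 11030 and 11910 to 14970. All 3 dividing cell markers were nevertheless kept, with a median log2 fold change of 0.03. A sum follows its brightest members. Macrophage markers summed to 4761 to 4820 and 3934 to 4458, and B lymphocyte markers to 1545 to 1824 and 1424 to 1587. Muscle markers summed to 1563 to 1714 and 1067 to 1614, and pluripotency markers to 1398 to 1533 and 724 to 1964. The sums of 2 dim lists were apart too: 61.3 to 91.3 and 114 to 150 for hepatocyte markers, and 256 to 335 and 343 to 556 for testis markers. Sums of 3 against 3 arrays would be apart in a share of about 0.1 without any difference between the inputs. No marker gene was called.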
